A study of Caenorhabditis elegans with 8 samples.

Results

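The major sperm protein (msp), sperm-specific class P (ssp) and nematode-specific peptide group D (nspd) genes of Caenorhabditis elegans were examined in whole animals. A gene was taken as a member where its name in the deposited annotated gene table begins with msp-, ssp- or nspd-, which gave 52 genes (31 msp, 12 ssp and 9 nspd) of the 20536 genes with a name in that table and of 46926 genes counted. Polyadenylated RNA from whole bodies of animals grown at 20 °C on OP50 bacteria was sequenced in 8 libraries, 4 labelled smrd1Null (a deletion of smrd-1, the worm homolog of the chromatin remodeler SMARCAD1) and 4 labelled Control (the wild-type strain N2), with replicates numbered 1 to 4 in each. No tau transgene is named for either group. The extraction protocol gives the L4 larval stage and the design text describes adults, so the stage is given differently by the sources. The smrd-1 deletion strains were made with Cas9 guides against exons 1 to 6, and the study names the line smrd-1 Δ#1 for its RNA sequencing, while the labels say only smrd1Null. Whether replicates came from separate cultures is not stated either, so a p-value here measures only the spread between these samples.

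MSP is the cytoskeletal protein of the crawling, actin-poor sperm of nematodes: its filaments push the pseudopod forward. MSP released from sperm also acts as a hormone that triggers oocyte maturation and contraction of the gonad sheath. The msp genes form a large family of near-identical copies that is transcribed in spermatocytes, ssp genes encode small proteins with an MSP-type domain, and nspd genes encode short peptides of unknown function that are transcribed in the sperm-making germ line. A hermaphrodite makes sperm first, around the L4 stage, and then turns to oocytes.

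The targeted gene went against the labels. The count of smrd-1 was 6369, 6252, 6874 and 6330 in the libraries labelled smrd1Null replicates 1 to 4, against 3638, 2997, 3876 and 4073 in the libraries labelled Control. Its level averaged 85.1 ± 4.35 CPM (counts scaled to library size, with TMM normalization) in the libraries labelled smrd1Null and 47.9 ± 3.93 CPM in those labelled Control (SD, n = 4 each), and the groups did not overlap (log2 fold change 0.83, SE 0.0813, adjusted p = 0.00889 in edgeR's quasi-likelihood test with Benjamini-Hochberg adjustment; p = 0.0286 in an exact permutation test, two-sided, over 70 arrangements, which allow no smaller p). Without smrd1Null replicate 1 the edgeR adjusted p was 0.0574. The count covers the whole gene, so it does not show whether the targeted exons are present. Every direction given below is between the libraries as labelled.

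Libraries held 74704022 to 78008833 counts, and a floor of 3 counts lay between 0.0371 and 0.0422 CPM, for counting error only. In both groups replicates 3 and 4 stood apart from replicates 1 and 2, which no label mentions. The division is seen in the values alone and no part of the design describes it, and results are therefore given for all 8 libraries and for each division. Summed over 10 body wall muscle genes, the level was 18560 and 17622 CPM in smrd1Null replicates 1 and 2 and 11086 and 10751 CPM in smrd1Null replicates 3 and 4, against 18542 and 19255 CPM in Control replicates 1 and 2 and 13869 and 13463 CPM in Control replicates 3 and 4.

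All 52 genes were present in every library, and each passed edgeR's filter on low counts. The deposited gene table holds only genes with at least 10 counts summed over the libraries, so genes of these names with fewer counts were not considered. They are short genes: 49 have a single exon, and the gene models of 28 of the 31 msp genes are 384 bases long and encode 127 residues, while the nspd models span 213 to 222 bases and the ssp models 324 to 451. The models of 49 genes hold no untranslated region, so their length is the coding length. In the WBcel235 genome 13 msp genes lie on chromosome II and 18 on chromosome IV, in runs that also hold ssp and nspd genes, and no msp gene lies on the X chromosome. No exon of another gene overlaps theirs in the annotation. Because the authors' counting left out reads that map to more than 1 place, counts of near-identical msp copies are uncertain: a copy keeps only the reads that map to it and to no other place.

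Compared per length, the msp genes covered a wide range of levels. Over the 8 libraries the level ran from 0.835 CPM per kb for msp-32 to 293 CPM per kb for msp-59, with a median of 140 CPM per kb. The nspd genes ran from 21.2 CPM per kb (nspd-9) to 239 CPM per kb (nspd-2), with a median of 101 CPM per kb. The ssp genes were lower, from 2.96 CPM per kb (ssp-37) to 76.3 CPM per kb (ssp-10), with a median of 14.98 CPM per kb. Together the 31 msp genes took 0.200% of all counts on average in the libraries labelled smrd1Null and 0.138% in those labelled Control.

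The summed level of each family was higher in replicates 3 and 4 than in replicates 1 and 2 within both groups, and between the groups it overlapped. The msp sum was 1126, 1332, 2951 and 2469 CPM in smrd1Null replicates 1 to 4, against 1158, 857, 1925 and 1547 CPM in Control replicates 1 to 4. The lower smrd1Null libraries thus lay within the Control range, and the higher ones lay above every Control library. Mean sums were 1969 ± 881 CPM in the libraries labelled smrd1Null and 1372 ± 465 CPM in those labelled Control (SD, n = 4 each), a log2 ratio of 0.52.

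The other families followed the same order of libraries within each group. Between the groups, the nspd sum was slightly higher in smrd1Null replicate 1 (153.4 CPM) than in Control replicate 1 (152.6 CPM), the reverse of msp. The nspd sum was 153, 178, 427 and 391 CPM in smrd1Null replicates 1 to 4, against 153, 111, 284 and 255 CPM in Control replicates 1 to 4, a log2 ratio of the means of 0.52. The ssp sum was 75.5, 85.9, 174 and 153 CPM in smrd1Null replicates 1 to 4, against 77.4, 58.9, 132 and 108 CPM in Control replicates 1 to 4, a log2 ratio of 0.38. Set side by side by replicate number, which no label gives as a pairing, the msp sum of smrd1Null over Control was 0.973, 1.55, 1.53 and 1.60. Number 1 thus showed no excess and the other numbers did. In whole animals, a change in the number of sperm-making cells and a change in the RNA of each cell cannot be told apart.

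**Figure D1:**
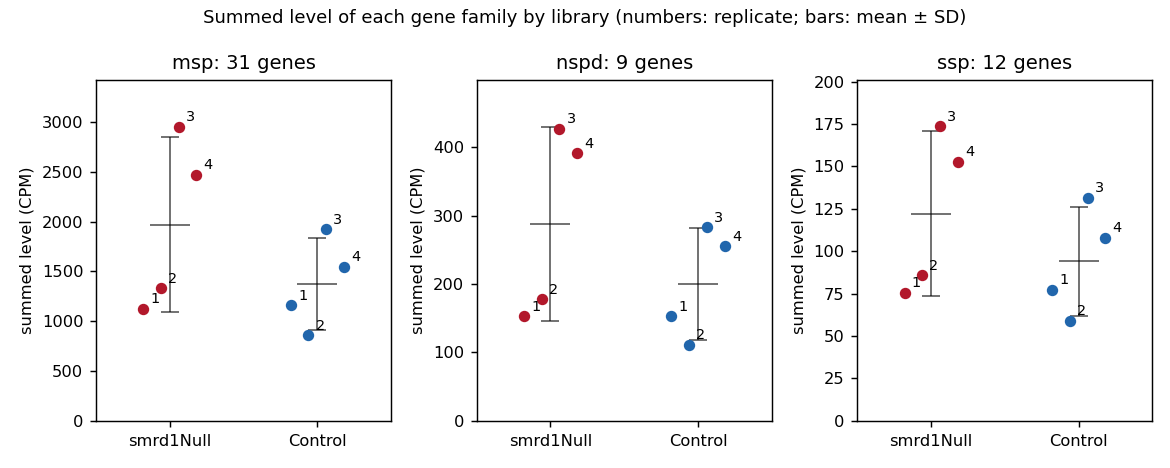
Summed level in CPM of the 31 msp, 9 nspd and 12 ssp genes in each library, with the libraries labelled smrd1Null (red) left of those labelled Control (blue). Points carry the replicate number and bars give the mean ± SD of 4 libraries. Replicates 3 and 4 are above replicates 1 and 2 in every panel and both groups, and the msp sums span 1126 to 2951 CPM in smrd1Null and 857 to 1925 CPM in Control.

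Over all 8 libraries no member was called. edgeR's quasi-likelihood test called 26 of 16808 genes (0.155%; 7 to 14 genes with any 1 library left out) at a Benjamini-Hochberg adjusted p of at most 0.05 and 0 of the 52 members, whose smallest adjusted p was 0.601. At an unadjusted p under 0.05 it gave 2 members, ssp-37 and msp-113, against 7.74% of all genes. DESeq2 called 275 of 20536 genes (1.34%), 0 of them members, and gave 3 members at an unadjusted p under 0.05, against 9.59% of all genes. In no member did the 4 libraries labelled smrd1Null separate from the 4 labelled Control in CPM, whereas 5.2% of all genes separated.

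The members leaned one way all the same. The log2 fold change was above 0 in 50 of 52 members, against 48.6% of all genes tested, and the exceptions were msp-63 and msp-32. The median log2 fold change was 0.50 for msp, 0.49 for nspd and 0.51 for ssp, beside -0.01 over all genes tested. These genes vary together across libraries, so the 50 are not independent of each other. The medians rested in part on single libraries: without smrd1Null replicate 3 they were 0.22 for msp, 0.21 for nspd and 0.28 for ssp, and for nspd the median was 0.30 without Control replicate 2 and 0.31 without smrd1Null replicate 4.

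**Figure D2:**
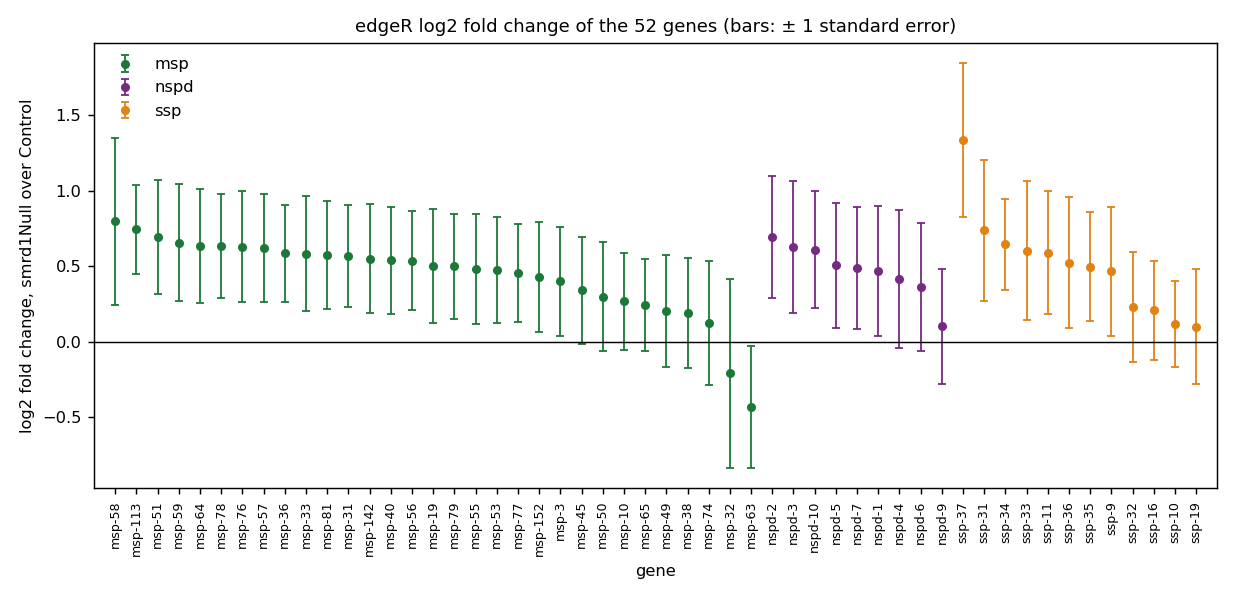
edgeR log2 fold change of each of the 52 genes, smrd1Null over Control, with bars of 1 standard error, ordered by size within msp (green), nspd (purple) and ssp (orange). Most genes lie between 0.3 and 0.7, ssp-37 is highest at 1.34, and msp-32 and msp-63 alone lie below 0.

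The level of single genes repeated the pattern of the sums. In 46 of 52 members the highest library was smrd1Null replicate 3, and in 43 the lowest was Control replicate 2. Both smrd1Null replicates 3 and 4 were above all 4 Control libraries in 43 members. In 49 members replicates 3 and 4 were above replicates 1 and 2 within both groups.

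**Figure D3:**
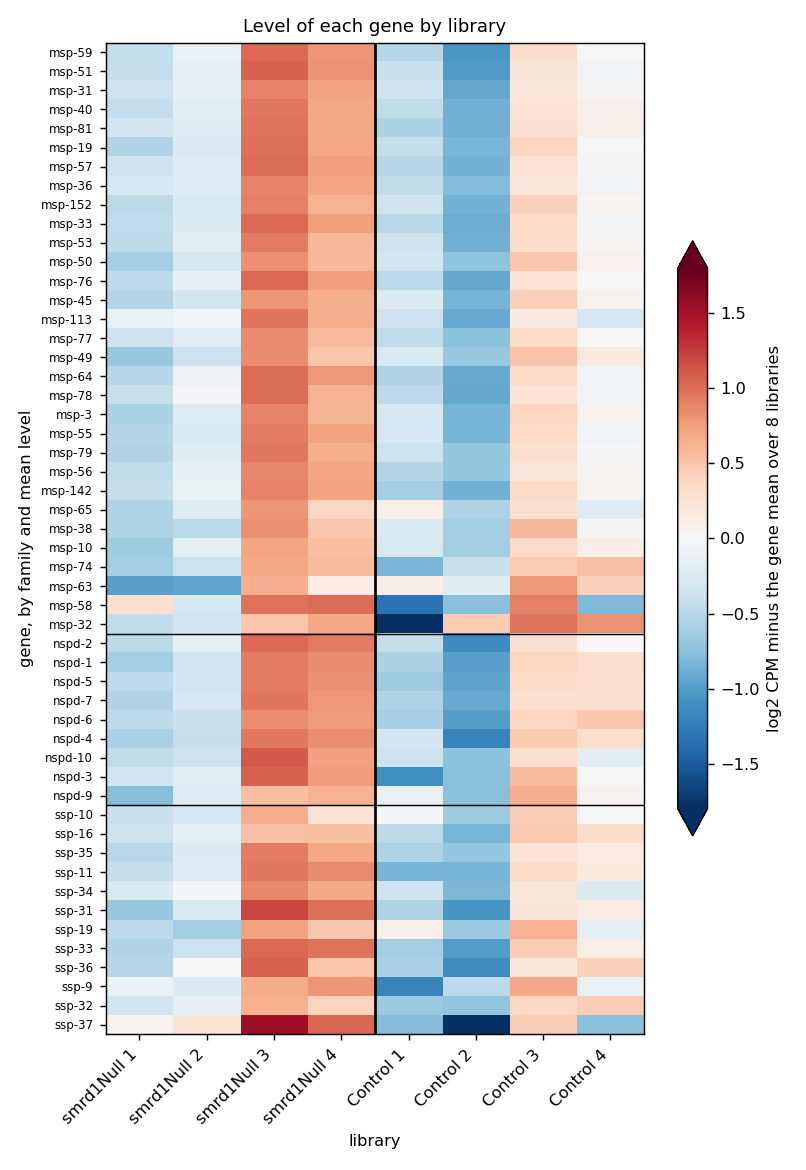
Level of each gene in each library as log2 CPM minus the gene's mean over the 8 libraries, with genes in rows by family and mean level, and smrd1Null left of Control. Columns for smrd1Null replicates 3 and 4 are high in nearly every row and Control replicate 2 is low, while msp-63, msp-58 and msp-32 depart from the other msp rows.

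The 3 msp genes highest per length moved together. msp-59, at 293 CPM per kb, had 74.6, 92.8, 207.1 and 177 CPM in smrd1Null replicates 1 to 4, against 71.0, 48.99, 128 and 102 CPM in Control replicates 1 to 4 (log2 fold change 0.66, SE 0.388, edgeR adjusted p = 0.685). msp-51 had 68.2, 81.5, 192 and 161 CPM in smrd1Null, against 69.98, 45.4, 108 and 87.5 CPM in Control (log2 fold change 0.69, SE 0.375, edgeR adjusted p = 0.668). In both genes the highest smrd1Null libraries were above all Controls and the lowest were not, and msp-31 did the same, with 68.4, 79.1, 167 and 148 CPM in smrd1Null, against 69.4, 47.4, 104 and 91.2 CPM in Control (log2 fold change 0.57, SE 0.339).

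Among well-counted msp genes the largest fold change was that of msp-113, which lies on chromosome IV at 5297962 to 5298345 on the plus strand. It had 48.8, 52.05, 104 and 84.5 CPM in smrd1Null replicates 1 to 4, against 41.3, 28.7, 59.7 and 43.3 CPM in Control replicates 1 to 4, and Control replicate 3 alone reached into the smrd1Null range (log2 fold change 0.74, SE 0.292, edgeR adjusted p = 0.612). A larger fold change, 0.80 (SE 0.551), belonged to msp-58, a model of 234 bases with only 21, 14, 36 and 38 counts in smrd1Null, against 7, 10, 34 and 11 counts in Control. At that depth its groups were not distinguishable.

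The members below 0 were both low genes. msp-63, on chromosome II at 5797065 to 5797448 on the minus strand, had 1.32, 1.36, 4.07 and 2.86 CPM in smrd1Null replicates 1 to 4, against 2.85, 2.22, 4.43 and 3.46 CPM in Control replicates 1 to 4. It was lower in smrd1Null at all 4 replicate numbers, the reverse of most of the family, although its groups overlapped (log2 fold change -0.43, SE 0.403, edgeR adjusted p = 0.748). msp-32, a shorter model of 360 bases, had 13, 14, 27 and 32 counts in smrd1Null, against 3, 24, 37 and 35 counts in Control, and its log2 fold change of -0.21 (SE 0.627) was within the spread of its libraries.

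The nspd genes behaved much alike. nspd-2 had 32.4, 40.2, 91.7 and 86.9 CPM in smrd1Null replicates 1 to 4, against 33.9, 20.6, 55.6 and 45.2 CPM in Control replicates 1 to 4 (log2 fold change 0.69, SE 0.405, edgeR adjusted p = 0.683). nspd-1 had 28.7, 34.9, 83.9 and 78.8 CPM in smrd1Null, against 29.5, 22.2, 57.2 and 54.7 CPM in Control (log2 fold change 0.47, SE 0.429). Replicates 3 and 4 of smrd1Null were thus above every Control in both genes. The same held in nspd-5, with 25.0954, 27.3, 66.3 and 61.7 CPM in smrd1Null, against 22.2, 17.9, 44.1 and 42.7 CPM in Control (log2 fold change 0.51, SE 0.413).

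Other nspd genes had fold changes from 0.10 to 0.63. nspd-3 had 7.53, 8.50, 20.2 and 16.5 CPM in smrd1Null, against 4.49, 5.73, 14.3 and 9.66 CPM in Control (log2 fold change 0.63, SE 0.437), and it was higher in smrd1Null at every replicate number. nspd-9, the lowest of the group, had 2.52, 3.67, 6.23 and 6.60 CPM in smrd1Null, against 3.90, 2.56, 6.78 and 4.46 CPM in Control, with the groups fully mixed (log2 fold change 0.10, SE 0.380).

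The ssp genes were more varied. ssp-10, the highest per length, had 18.3, 19.5, 37.96 and 29.04 CPM in smrd1Null replicates 1 to 4, against 23.8, 15.6, 32.9 and 24.3 CPM in Control replicates 1 to 4, and the groups were interleaved (log2 fold change 0.12, SE 0.285). ssp-16 also differed little, with 16.7, 19.5, 31.5 and 31.9 CPM in smrd1Null, against 15.9, 12.5, 30.4 and 27.5 CPM in Control (log2 fold change 0.21, SE 0.329). A larger difference was seen in ssp-35, with 10.6, 12.6, 28.3 and 24.3 CPM in smrd1Null, against 10.1, 9.19, 17.8 and 16.5 CPM in Control (log2 fold change 0.50, SE 0.359).

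The widest difference of all members was in ssp-37, a gene of 2 exons. It had 1.10, 1.26, 3.10 and 2.19 CPM in smrd1Null replicates 1 to 4, against 0.618, 0.309, 1.45 and 0.643 CPM in Control replicates 1 to 4, on counts of 80 to 241 in smrd1Null and of 22 or more in Control. Only Control replicate 3 reached into the smrd1Null range (log2 fold change 1.34, SE 0.510, edgeR adjusted p = 0.601). ssp-31 had 2.86, 3.81, 10.5 and 9.11 CPM in smrd1Null, against 3.15, 2.19, 5.38 and 5.07 CPM in Control (log2 fold change 0.74, SE 0.467). ssp-19 lay at the other end, with 3.05, 2.74, 7.01 and 5.95 CPM in smrd1Null, against 4.52, 2.67, 6.54 and 3.76 CPM in Control (log2 fold change 0.10, SE 0.380).

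When the division of the replicates, which is seen in the values alone, entered the fit, some members passed the threshold. With the division of replicates 1 and 2 from 3 and 4 as a covariate, edgeR called 11 members at an adjusted p of at most 0.05, all higher in the libraries labelled smrd1Null, against 2.67% of all genes called higher. They were msp-36, msp-56, msp-57, msp-59, msp-81, msp-113 and msp-142, nspd-3 and nspd-5, and ssp-11 and ssp-37. Their log2 fold changes in that fit ran from 0.47 for nspd-5 (SE 0.0823, edgeR adjusted p = 0.02510) to 1.34 for ssp-37 (SE 0.316, edgeR adjusted p = 0.0484). With the replicate number as a block, 26 genes and 0 members were called, and 33 members were higher and 1 (msp-63) lower at an unadjusted p under 0.05, beside 12.6% of all genes higher.

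Within the divisions the members differed in number called. In replicates 3 and 4 alone, edgeR called 34 members higher in smrd1Null (22 msp, 7 nspd and 5 ssp), against 6.62% of all genes called higher, with a median log2 fold change of 0.61 over the 52 members. Such calls were not particular to the families. Of the lists described below, 11 of 19 oocyte genes and all 6 yolk genes were also called higher in replicates 3 and 4 alone. Of 48 other sperm genes, 11 were called higher and 2 lower. Of 10 body wall muscle genes, 7 were called lower, against 940 of 16715 genes. In replicates 1 and 2 alone edgeR called 0 members, against 1.62% of all genes in either direction. At an unadjusted p under 0.05 were 12 members, against 20.6% of all genes, so that the members were near that share. There the median was 0.31 and 44 of 52 members were above 0, and smrd1Null replicate 1 over Control replicate 1 was above 1 in only 29 members. Whether the change differed between the divisions was not tested. The division was found in these same values, in which 49 of the 52 members were higher in replicates 3 and 4 within both groups. The calls within a division are therefore descriptions and no independent support for a change of the families.

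By position, the msp genes fell into 4 runs, with no more than 500000 bases between neighbouring members. The median log2 fold change was 0.37 over 10 msp genes between 4785898 and 5200180 and 0.55 over 3 msp genes between 5797065 and 5810330 on chromosome II, beside 0.62 over 9 msp genes between 4994371 and 5316906 and 0.54 over 9 msp genes between 9689015 and 10738602 on chromosome IV. The ranges overlapped, at -0.21 to 0.58 and -0.43 to 0.63 on chromosome II and at 0.24 to 0.80 and 0.19 to 0.63 on chromosome IV. These values are descriptions, with no test, since genes of a run share their libraries.

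Within a group, most msp genes kept nearly the same share of the msp counts in its libraries. The median coefficient of variation of these shares was 3.93% over the libraries labelled smrd1Null and 5.03% over those labelled Control, whereas that of CPM was 44.9% in smrd1Null and 34.2% in Control. The shares of msp-32, msp-58, msp-74 and msp-65 varied more, by 62.6, 49.8, 26.7 and 23.2% over the Control libraries. In all, 8 of 31 msp genes had shares that did not overlap between the groups, beside 2.37% of all genes scaled to the same msp sum. The msp genes themselves make up that sum, which narrows their spread and not that of other genes, so the 2 figures are not alike.

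Relative to its size, the share of msp-63 differed most among these 8 genes. It was 0.117, 0.102, 0.138 and 0.116% of msp counts in smrd1Null replicates 1 to 4, against 0.246, 0.259, 0.230 and 0.224% in Control replicates 1 to 4, so that each smrd1Null library was far below each Control library. An edgeR fit scaled to the msp sum gave a log2 fold change of -1.02 (SE 0.303), which was not called over all genes (edgeR adjusted p = 0.671). msp-142 lies 478 bases away on the opposite strand, at 5797927 to 5798310, and the genes are transcribed away from each other. The msp-63 count was 5.84, 4.82, 7.19 and 5.66% of the msp-142 count in smrd1Null replicates 1 to 4, against 14.3, 13.3, 11.3 and 10.8% in Control replicates 1 to 4, while msp-142 itself had a log2 fold change of 0.55 (SE 0.361, edgeR adjusted p = 0.703).

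The other shares, of genes that hold more of the msp counts, differed by less in relative terms and, in part, by more in percentage points. msp-49 took 2.71, 2.84, 2.998 and 2.83% of msp counts in smrd1Null, against 3.51, 3.57, 3.65 and 3.55% in Control, and its neighbour msp-50 took 3.61, 3.84, 3.72 and 3.76% in smrd1Null, against 4.23, 4.39, 4.52 and 4.24% in Control. These genes and msp-45, whose share was also lower in smrd1Null (3.45 to 3.74% against 3.85 to 4.27%), lie between 5156700 and 5200180 on chromosome II. msp-38 took 1.53, 1.36, 1.53 and 1.45% in smrd1Null, against 1.85, 1.94, 1.97 and 1.68% in Control. The shares of msp-3 and msp-152 were also lower in smrd1Null, and msp-51 alone had a higher share there, at 6.06 to 6.505% against 5.30 to 6.04%.

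**Figure D4:**
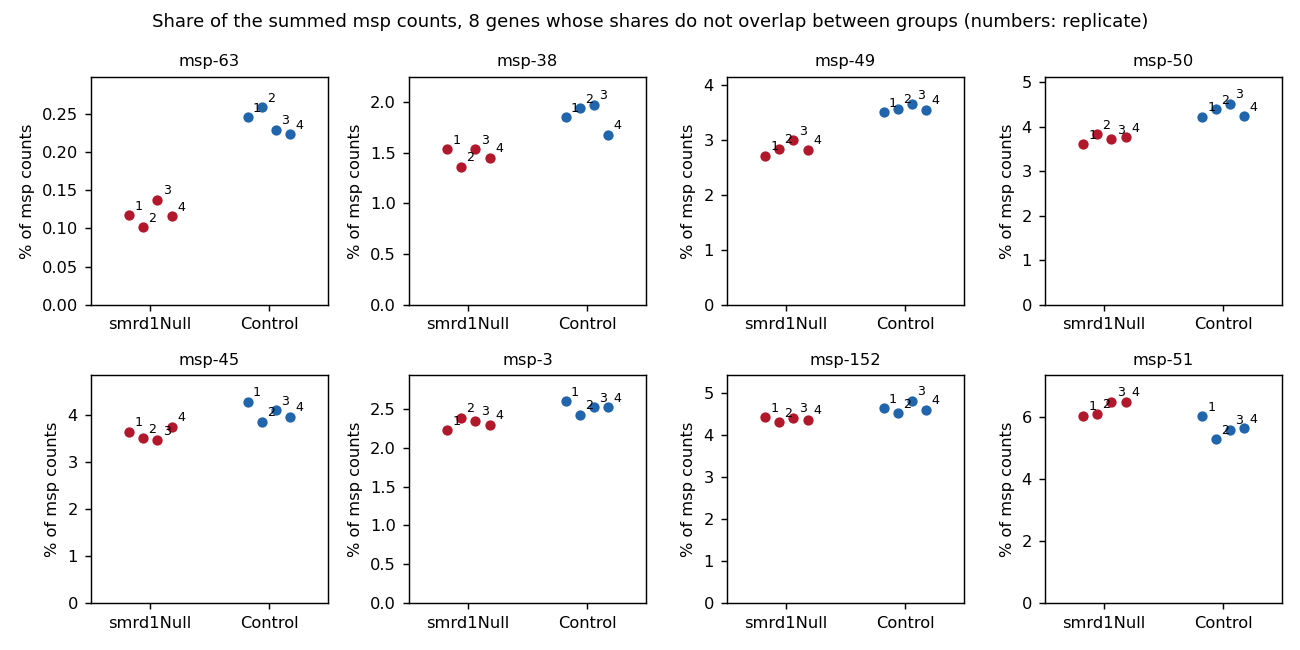
Share of the summed msp counts, in percent, of the 8 msp genes whose shares do not overlap between groups, with libraries labelled smrd1Null (red) left of Control (blue) and replicate numbers beside the points. The axes start at 0: msp-63 is at 0.102 to 0.138% in smrd1Null and 0.224 to 0.259% in Control, and the other genes shown differ by less as a ratio of the groups.

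Among ssp genes, ssp-34 and ssp-37 had shares of the ssp counts that did not overlap, beside 2.4% of all genes scaled to the ssp sum. The ssp genes themselves make up that sum, so here too the figures are not alike. ssp-34 took 12.1, 12.5, 11.5 and 11.5% in smrd1Null, against 10.95, 10.7, 9.71 and 8.54% in Control. ssp-37 took 1.46, 1.47, 1.78 and 1.43% in smrd1Null, against 0.799, 0.524, 1.11 and 0.595% in Control. No nspd share separated the groups.

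The rest of the sperm programme was followed with 48 genes of a list of 54 names. edgeR and DESeq2 called 0 of them. At an unadjusted p under 0.05 they gave 0 and 1, against 7.74 and 9.59% of all genes. Of the 48 genes, 40 were above 0, against 48.6% of all genes tested, with a median log2 fold change of 0.28. With the division of the replicates as a covariate, edgeR called 6 higher, against 2.67% of all genes called higher. The pair with the smallest p follows. htas-1, a histone H2A variant of sperm chromatin, had 6.14, 7.83, 18.9 and 16.5 CPM in smrd1Null, against 4.73, 3.74, 9.51 and 9.29 CPM in Control (log2 fold change 0.85, SE 0.442). ssq-3, of the sperm-specific ssq family, had 22.2, 24.9, 49.5 and 38.7 CPM in smrd1Null, against 18.9, 13.7, 29.6 and 22.4 CPM in Control (log2 fold change 0.68, SE 0.305).

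Other genes of the list, chosen for the text after their values were seen, had fold changes nearer to or below 0. spe-44, a transcription factor of the spermatocyte programme, had 21.5, 25.07, 22.8 and 23.1 CPM in smrd1Null, against 16.8, 16.7, 26.4 and 28.5 CPM in Control (log2 fold change 0.06, SE 0.190). fog-3, which commits germ cells to the sperm fate, had 14.6, 12.7, 5.81 and 6.17 CPM in smrd1Null, against 11.75, 17.3, 8.10 and 10.1 CPM in Control (log2 fold change -0.27, SE 0.357). Unlike msp, fog-3 was thus lower in replicates 3 and 4 than in replicates 1 and 2 of both groups. fer-1, needed for fusion of sperm membranous organelles, had 32.2, 38.3, 30.2 and 27.8 CPM in smrd1Null, against 23.9, 23.5, 36.4 and 34.2 CPM in Control (log2 fold change 0.12, SE 0.173).

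Lists of oocyte and yolk genes also had higher mean sums in the libraries labelled smrd1Null. Within smrd1Null both sums followed the order of the families, highest in replicate 3, then 4, 2 and 1. Control replicate 2 was the lowest library, as in the families. The order departed from theirs within Control, where both sums were higher in replicate 1 than in replicate 4. Summed over 19 oocyte genes (all above 0, median log2 fold change 0.71, 8 at an unadjusted p under 0.05), the level was 1497, 1787, 3217 and 2392 CPM in smrd1Null replicates 1 to 4, against 1580, 1035, 1904 and 1147 CPM in Control replicates 1 to 4. Among them perm-4, of the eggshell, had a log2 fold change of 1.04 (SE 0.356, edgeR adjusted p = 0.568), and egg-2, on the oocyte surface, one of 0.88 (SE 0.328). The 6 yolk genes, which mark the adult intestine, were also all above 0 with a median of 1.60, and their sum was 6583, 8549, 18352 and 12312 CPM in smrd1Null, against 5639, 2249, 6596 and 3131 CPM in Control. Of these, vit-3 had a log2 fold change of 1.95 (SE 0.547, edgeR adjusted p = 0.449) and vit-4 one of 1.96 (SE 0.561). edgeR called 0 genes of either list, DESeq2 called 0 oocyte genes (13 at an unadjusted p under 0.05) and 3 yolk genes (vit-3, vit-4 and vit-5). DESeq2 called 1.34% of all genes. All 6 yolk genes were at an unadjusted p under 0.05 in both tests, against 7.74% of all genes in edgeR and 9.59% in DESeq2. In CPM the groups did not overlap in 4 yolk genes and 0 oocyte genes, against 5.2% of all genes. What moved these lists and its part in the family's levels was not tested.

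Over all 8 libraries the remaining lists differed less. Of 16 genes used by the germ line of both sexes, 15 were above 0, with a median log2 fold change of 0.16, 0 called and 2 (pgl-3 and pgl-1) at an unadjusted p under 0.05. All 10 body wall muscle genes were below 0, with a median of -0.17, 0 called and 0 at an unadjusted p under 0.05. Over all genes tested, 48.6% were above 0 and 7.74% at an unadjusted p under 0.05. In replicates 3 and 4 alone, where 7 of the 10 muscle genes were called lower, their median was -0.33. Of 11 genes of male seminal fluid and tail, 6 passed the filter and 0 were called (1, try-5, at an unadjusted p under 0.05), and summed over the 11 the level was 10.2 to 21.0 CPM in smrd1Null and 11.6 to 20.3 CPM in Control. The defining male tail gene pkd-2 was at most 0.0996 CPM in smrd1Null and at most 0.161 CPM in Control, and clec-207, of male seminal fluid, at most 0.0249 CPM in smrd1Null and 0.0247 CPM in Control.

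**Figure D5:**
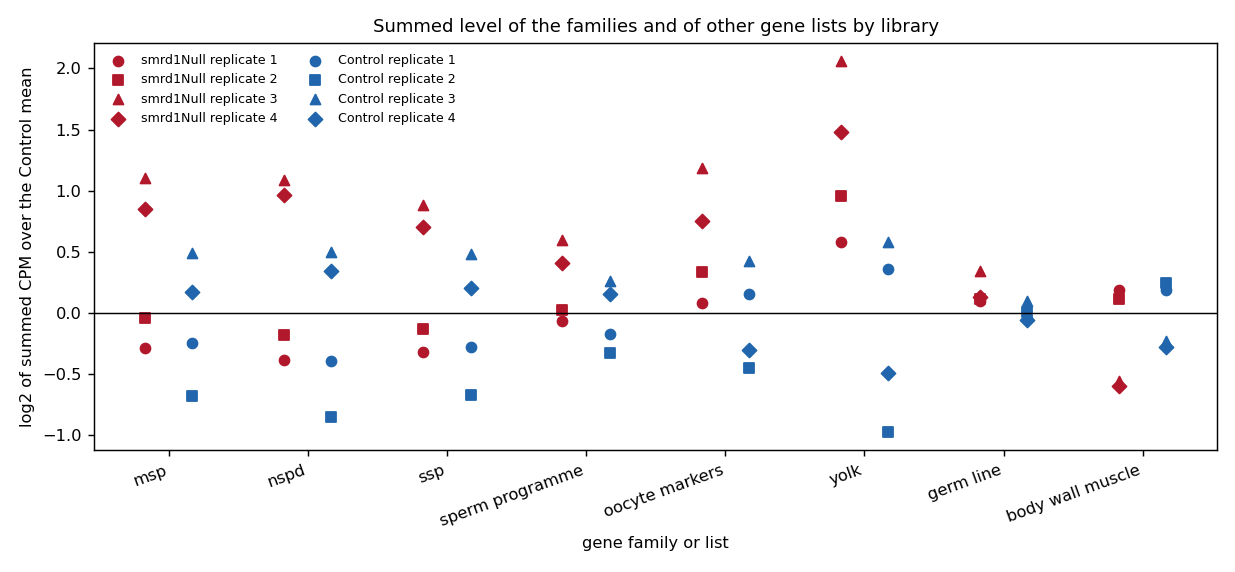
Summed CPM of the 3 families and of 5 other gene lists in each library, as log2 over the mean of the 4 Control libraries, with smrd1Null (red) left of Control (blue) and a symbol for each replicate number. The sperm families, the oocyte list and the yolk list are highest in smrd1Null replicate 3, and the muscle list is lowest in smrd1Null replicates 3 and 4.

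Genes that receive the MSP signal were mostly below 0. Of 19 genes of MSP sensing, in the oocyte and the gonad sheath, 6 were above 0 and 13 below, beside 48.6% of all genes above 0. Their median log2 fold change was -0.12, and edgeR called 0 of them. At an unadjusted p under 0.05, beside 7.74% of all genes, there was 1. That gene was ipp-5, an inositol phosphatase of the spermatheca and sheath, with 27.6, 26.4, 21.0 and 23.9 CPM in smrd1Null, against 35.6, 38.2, 25.4 and 27.2 CPM in Control (log2 fold change -0.35, SE 0.154, edgeR adjusted p = 0.639). vab-1, the Eph receptor that binds MSP, had 72.8, 73.2, 67.3 and 61.1 CPM in smrd1Null, against 69.1, 71.1, 67.4 and 63.2 CPM in Control (log2 fold change 0.02, SE 0.0801). dab-1, an adaptor protein that acts in oocytes, had a log2 fold change of 0.20 (SE 0.0899).

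Genes with an MSP domain or a related name outside the families were mostly not higher. Of 10 tested, 3 were above 0, beside 48.6% of all genes. Their median log2 fold change was -0.14, with 0 called by edgeR and 0 at an unadjusted p under 0.05. vpr-1, a secreted MSP-domain protein of the VAP family that is not sperm-specific, had 162, 160, 162 and 152 CPM in smrd1Null, against 159, 146, 160 and 164 CPM in Control (log2 fold change 0.02, SE 0.0674). msd-4 stood closer to the msp genes, with 28.2, 35.7, 97.3 and 80.9 CPM in smrd1Null, against 34.2, 28.2, 62.0 and 55.5 CPM in Control (log2 fold change 0.43, SE 0.426). The peptide genes nspe-1 and nspc-3 had log2 fold changes of -0.35 (SE 0.189) and -0.32 (SE 0.223).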

How the data were processed

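Raw counts per gene and library were deposited by the authors, made from 150 bp paired reads aligned to WBcel235 (STAR 2.7.11b) and summed on genes by featureCounts 2.0.1. The count header names annotation release 112, the paper's methods another. The count command sets no option for pairs or strand, so mates were counted singly and without strand. The authors' deposited DESeq2 table also holds a mean normalized signal, log2 fold changes and their errors, Wald scores, p-values and adjusted p-values, and none of these was used. Its gene identifiers and names were used to find the members. Positions came from Ensembl release 115, whose coordinates were the same for all 52 members. That release gives the gene called ssp-11 here the name ssp-9, which it also gives to the neighbouring ssp-9. No sequences were shown.

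The members and gene lists were chosen with earlier results of these data known. Of 147 list names, 140 were found. Groups came from the sample titles. Counts were tested with edgeR 4.0.16 in R 4.3.3 (TMM, the expression filter by group, quasi-likelihood test, no covariate, Benjamini-Hochberg adjusted p of at most 0.05 over all genes tested). CPM are TMM-normalized, and the standard error is the fold change over the square root of F. DESeq2 1.42.0 replaced it as an alternative. Others were other size factors and filters, a replicate block, and the covariate for the division of replicates. Fits with single libraries left out, each division alone, and scaling to the msp sum were also run. Each division alone and the scaling were chosen after seeing the data. The covariate too rests on a division that is seen in the values alone. Named genes are, per family, the 3 highest per length and the 2 with the most positive and most negative fold change, and per list the 2 with the smallest p. Other genes given were chosen after their values were seen.

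Deviations from the group means of same-numbered libraries correlated at 0.357, 0.221, 0.489 and 0.390 for numbers 1 to 4. No label gives the numbers as pairs, so the main fit took none, and the numbers entered only the replicate block. Across numbers of a division, Control replicate 1 correlated with smrd1Null replicate 2 at 0.267, and Control replicate 2 with smrd1Null replicate 1 at 0.516. Control replicate 3 correlated with smrd1Null replicate 4 at 0.461, and Control replicate 4 with smrd1Null replicate 3 at 0.255. Of the smrd1Null libraries, only replicate 3 correlated best with the Control of its own number. The values thus do not single out the number within a division. No replicates were duplicates: counts of each pair within a group differed by a chi-square per degree of freedom of at least 28.4. Figures were drawn with matplotlib 3.10.9.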

Additional observations from a re-analysis of the deposited data

Results flagged for a closer look

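In 4 of 216 groups of 4 libraries examined, a single library lay far from the other 3, and chance flags about 1 in 20 such groups. The share of msp-57 in the msp counts was 4.77% in its lowest smrd1Null library, against 5.07 to 5.11% in the others. The share of ssp-37 in the ssp counts was 1.78% in its highest smrd1Null library, against 1.43 to 1.47% in the others. msp-58 was at 0.441 CPM in its highest Control library, against 0.0941 to 0.141 CPM in the others, at 7 to 34 counts. The share of msp-76 in the msp counts was 3.93% in its highest Control library, against 3.73 to 3.75% in the others. Their part in the comparisons was not tested.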

How the results depend on the processing

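Limits on depth applied to few members: msp-32 and msp-58 had 3 to 38 counts a library, and nearly identical msp copies were counted only where reads differ. Restricting the sums to copies with unique sequence was not run, since no genome sequence was used here. Members were called under the covariate and in replicates 3 and 4 only, and 0 were called under the other settings run. The genes called numbered 275 with DESeq2, with or without independent filtering, 929 with the covariate (11 members), 273 in replicates 1 and 2 only, 2078 in replicates 3 and 4 only (34 members), and 7 to 14 with a library left out, against 26. The replicate block changed no call of a member or of smrd-1 (log2 fold change 0.83, edgeR adjusted p = 0.0438). Leaving out single libraries gave smrd-1 a log2 fold change of 0.77 to 0.85, with an adjusted p of 0.0218 to 0.0574, the highest without smrd1Null replicate 1. Scaled to the msp sum, which set the median of all genes to -0.42, the family medians were -0.03 for msp, -0.04 for nspd and 0.03 for ssp. Under the other settings they were above 0, and ran from 0.22 to 0.71 for msp, 0.21 to 0.70 for nspd and 0.28 to 0.74 for ssp with a library left out.

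Signs turned only in values that were not called, and the cause was not tested. Without Control replicate 2 nspd-9 was at -0.09, ssp-10 at -0.04 and ssp-19 at -0.07 on the log2 scale. msp-32 turned above 0 without Control replicate 3, at 0.0316, and kept its sign without Control replicate 1, at -0.57. Without Control replicate 3 the signs of nspd-9, ssp-10 and ssp-19 did not turn, at 0.37, 0.29 and 0.35. Without smrd1Null replicate 3 nspd-9 turned to -0.06, ssp-10 to -0.13 and ssp-19 to -0.17, and without smrd1Null replicate 4 nspd-9 to -0.10 and ssp-19 to -0.04. In replicates 1 and 2 only, nspd-9 was at -0.0731, ssp-10 at -0.0709 and ssp-19 at -0.32, and in replicates 3 and 4 only nspe-1 was at 0.14.
Scaled to the msp sum, nspd-1 at -0.0564, nspd-5 at -0.00564, nspd-9 at -0.38, nspd-6 at -0.13, ssp-10 at -0.37, ssp-16 at -0.22, ssp-35 at -0.0406, ssp-19 at -0.43, dab-1 at -0.28, pgl-3 at -0.16 and pgl-1 at -0.25 turned below 0, as scaling by a sum that is itself higher gives.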
